A study of Mus musculus with 8 samples.

Results

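The genes examined here encode subunits of the phagocyte NADPH oxidase and close relatives, measured in mouse medulloblastomas with and without Bcl2l1. The list holds 7 genes, Cybb, Cyba, Ncf1, Ncf4, Rac2, Rac1 and Nox4, and each was read from a probe set that the platform annotation gives to that symbol alone, 7 of the 22180 genes measured in this way. Where a gene had several such probe sets the one kept was chosen by its mean over all 8 arrays, but each of the 7 genes had only 1. The family itself was drawn up with earlier results of these data known, in which Cybb stood among the 10 largest increases, so the difference of Cybb between the genotypes is given below as a description and not as a test. All 7 passed the filter on dim genes, a mean over all arrays above the 30th percentile (4.38 on the log2 scale), which left 15526 genes.

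The tumours were taken at postnatal day 15 from 2 genotypes of mice, with 4 animals each and 1 Affymetrix whole-transcript array per tumour. The 4 Bcl2l1-deleted tumours are of the genotype Math1-Cre/SmoM2/Bcl2l1 f/f, in which Cre removes the floxed Bcl2l1, whose product BCL-xL protects cells from apoptosis, and the 4 control tumours are of the genotype Math1-Cre/SmoM2. Both groups thus carry Cre under the Math1 promoter, which is active in granule neuron precursors of the cerebellum, and SmoM2, an active form of Smoothened that drives Sonic hedgehog signalling and tumour growth in those cells. No animal was treated with an agent, and the status field of the labels reads deleted for all 8 samples, so the groups follow titles and genotypes.

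The oxidase of phagocytes moves electrons from NADPH across a membrane onto oxygen and so makes superoxide, which serves in killing of microbes and in signalling. Its membrane core pairs the catalytic subunit gp91phox (NOX2), from Cybb, with p22phox, from Cyba, and on activation cytosolic subunits, among them p47phox (Ncf1) and p40phox (Ncf4), and a Rac GTPase join it. In the brain the complex is known above all from microglia and other macrophages. Nox4 encodes a relative of gp91phox that also pairs with p22phox, is constitutively active and is known from kidney and vessel walls.

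RefSeq start regions of the members were searched for motifs, a description that did not use the expression values. PU.1, a transcription factor of myeloid cells from the gene Spi1, acts at the start region of human CYBB together with interferon regulatory factors, and its core motif GAGGAA and the composite motif GGAANNGAA of an ETS and an IRF factor were searched on both strands in windows of 250 bases before to 50 bases after the start. The windows of Cybb, Cyba and Ncf1, from RefSeq for GRCm38.p6, are printed 5′ to 3′ along the gene with matches in capitals, since these members differed between the genotypes and had a window.
Cybb, chrX:9469275-9469574, minus strand: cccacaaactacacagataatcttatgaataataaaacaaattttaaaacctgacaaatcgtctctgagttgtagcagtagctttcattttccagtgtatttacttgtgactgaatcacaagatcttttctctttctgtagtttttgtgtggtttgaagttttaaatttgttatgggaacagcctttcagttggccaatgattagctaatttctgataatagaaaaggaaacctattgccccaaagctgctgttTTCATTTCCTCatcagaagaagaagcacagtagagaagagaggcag
Cyba, chr8:122432891-122433190, minus strand: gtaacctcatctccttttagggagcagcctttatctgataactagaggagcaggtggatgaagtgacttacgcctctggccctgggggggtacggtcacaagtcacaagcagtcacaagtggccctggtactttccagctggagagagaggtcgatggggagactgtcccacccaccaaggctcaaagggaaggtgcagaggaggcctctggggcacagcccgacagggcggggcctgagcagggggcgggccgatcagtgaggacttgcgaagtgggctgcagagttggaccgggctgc
Ncf1, chr5:134229576-134229875, minus strand: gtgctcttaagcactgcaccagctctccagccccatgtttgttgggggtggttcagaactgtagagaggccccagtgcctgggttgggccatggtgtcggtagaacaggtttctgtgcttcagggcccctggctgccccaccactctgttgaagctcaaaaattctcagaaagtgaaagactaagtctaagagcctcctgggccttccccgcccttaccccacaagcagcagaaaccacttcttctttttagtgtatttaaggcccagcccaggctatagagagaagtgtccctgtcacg
The Cybb window held 1 match of each motif, both on the strand opposite to the gene, beginning at positions 10 and 5 after the start and overlapping each other, and the capitals mark their union. The windows of Cyba and Ncf1 held 0 matches, as did that of Nox4. Of 32851 windows of the same length, 28.3% held the PU.1 core and 8.2% the composite motif, so the matches describe these letters and show no binding. No difference between members is read from them. Ncf4, Rac2 and Rac1 were not matched to a window.

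The values are log2 RMA values, so a difference of 1 is a doubling, and levels of different probe sets are not compared with each other. Bcl2l1 itself averaged 5.48 ± 0.15 in Bcl2l1-deleted tumours and 6.84 ± 0.19 in controls (SD, n = 4 each), a fitted change of -1.36 (SE 0.155, adjusted p = 0.00509 by limma). Control replicate 2 stood apart, with correlations of 0.881 to 0.925 with the other arrays over all probe sets, where the other 7 reached at least 0.956 among themselves. Its values were also less spread, with an interquartile range over genes of 2.40, against 3.29 to 3.66 on the other 7. What narrowed its range was not tested. The median of the olfactory and vomeronasal receptor genes, which are mostly background in brain, was 2.79 to 2.92 on Bcl2l1-deleted arrays and 2.94 to 3.60 on controls, the highest on control replicate 2. The tested gene at the median was 0.17 higher in Bcl2l1-deleted tumours, so a relative change below is the fitted log2 change minus this shift, while SE and adjusted p belong to the fitted change. In a whole tumour, more cells of a type cannot be told apart from more RNA per cell.

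Cyba, Ncf1 and Rac2 rose 1.59 to 1.89-fold relative to the median gene in Bcl2l1-deleted tumours, and Ncf4, Rac1 and Nox4 did not pass. Cybb, given without a test, stood 3.36-fold higher on the same scale. Including Cybb, 4 of 7 genes passed an adjusted p of 0.05, all upwards, where 6.52% of all tested genes passed and 4.93% passed upwards. For 5 of 7 genes all Bcl2l1-deleted arrays lay above all controls, which held for 19.0% of all tested genes. As the family was built around Cybb, nothing is read from these shares. The count was 0 without Bcl2l1-deleted replicate 1 or 2, 2 without replicate 3 or 4, 5 without control replicate 2 and 1 without control replicate 4.

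**Figure D1:**
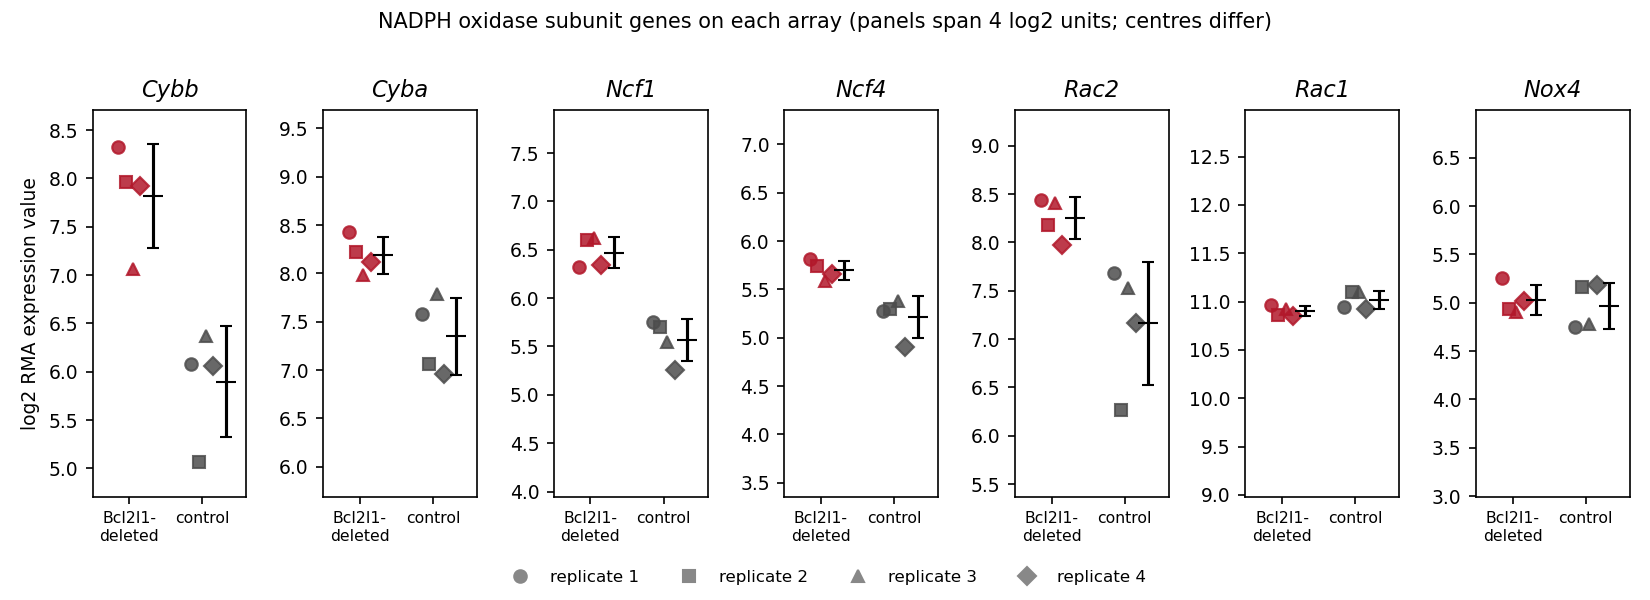
Log2 RMA value of each subunit gene on the 8 arrays, Bcl2l1-deleted on the left and control on the right of each panel, with the symbol giving the replicate number and the bar the mean ± SD (n = 4 each). For Cybb, Cyba, Ncf1, Ncf4 and Rac2 every Bcl2l1-deleted array lies above every control array, while Rac1 and Nox4 overlap.

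Cybb, whose protein carries the haem and flavin groups of the electron path, read 8.32, 7.96, 7.06 and 7.92 on Bcl2l1-deleted arrays 1 to 4, against 6.08, 5.06, 6.37 and 6.07 on control arrays 1 to 4. The groups did not overlap, although Bcl2l1-deleted replicate 3 lay about as far below the other deleted arrays as control replicate 2 lay below the other controls. The means were 7.82 ± 0.54 in Bcl2l1-deleted tumours and 5.90 ± 0.57 in controls (SD, n = 4 each), a relative log2 change of 1.75 ± 0.32 (SE). The fitted change was 1.92 with all arrays, 1.64 without control replicate 2 and 2.17 without Bcl2l1-deleted replicate 3. Cybb lies on the X chromosome, and the Xist level that marks female tissue was 9.63 or more on Bcl2l1-deleted arrays 1 and 2 and on control arrays 1, 2 and 4, and at most 4.92 on the other 3 arrays. The lowest Cybb reading of the Bcl2l1-deleted group, replicate 3, had low Xist, and that of the controls, replicate 2, had high Xist. With Xist as a covariate the fitted change was 1.95. The part of sex in the Cybb values was not tested.

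Cyba encodes p22phox, which stabilises gp91phox and serves several NOX proteins. It read 8.43, 8.22, 7.98 and 8.12 on Bcl2l1-deleted arrays and 7.58, 7.06, 7.79 and 6.96 on control arrays. The lowest deleted array lay only slightly above the highest control, and controls 2 and 4 were clearly lower than controls 1 and 3. Cyba rose by a relative log2 change of 0.67 ± 0.21 (SE), 1.59-fold, with an adjusted p of 0.0410. The call was lost without any 1 of Bcl2l1-deleted replicates 1 to 4 (adjusted p = 0.135, 0.123, 0.0633 and 0.0861) or without control replicate 4 (0.103). It was also lost when each array was centred on its median tested gene (adjusted p = 0.0849), after quantile normalization (0.0504), with no dim filter (0.0578), with the replicate number as a block (0.0615) and with the receptor covariate (0.140).

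Ncf1 encodes p47phox, the organiser that is phosphorylated on activation and docks the cytosolic subunits to p22phox. It read 6.32, 6.60, 6.62 and 6.35 on Bcl2l1-deleted arrays and 5.75, 5.70, 5.55 and 5.26 on control arrays. The gap between the groups was wider than the range within either of them, and control replicate 2 lay among the other controls. Ncf1 rose by a relative log2 change of 0.73 ± 0.16 (SE), 1.66-fold, with an adjusted p of 0.0174, and with an adjusted p of 0.00838 without control replicate 2. Leaving out Bcl2l1-deleted replicate 1 or replicate 2 ended the call (adjusted p = 0.0649 and 0.0743), as did leaving out control replicate 4 (0.0546) or centring each array on its median tested gene (0.0654).

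Ncf4 encodes p40phox, which binds the phosphoinositide of phagosome membranes. It read 5.81, 5.74, 5.58 and 5.66 on Bcl2l1-deleted arrays and 5.28, 5.29, 5.38 and 4.90 on control arrays. The groups did not overlap, but the distance between them was small. Its relative log2 change was 0.31 ± 0.15 (SE) with an adjusted p of 0.0756, so it did not pass. Without control replicate 2 the adjusted p was 0.0407, and Ncf4 also passed with quantile normalization (0.0447), with arrays centred on all probe sets (0.0465) and with array weights (0.0202).

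Of the Rac GTPases, Rac2 passed and Rac1 did not, and the difference between them was not tested. Rac2, the isoform of blood cells that serves the oxidase in neutrophils, read 8.44, 8.18, 8.41 and 7.97 on Bcl2l1-deleted arrays and 7.68, 6.27, 7.53 and 7.17 on control arrays. Control replicate 2 was the lowest by a wide margin, and the other controls still lay below every deleted array. Rac2 rose by a relative log2 change of 0.92 ± 0.28 (SE), 1.89-fold, with an adjusted p of 0.0457. Its fitted change of 1.09 became 0.79 without control replicate 2 (adjusted p = 0.0178) and 0.49 when the receptor median entered as covariate (adjusted p = 0.117). The call was lost without any 1 of Bcl2l1-deleted replicates 1 to 4 (adjusted p = 0.140, 0.121, 0.0937 and 0.0796), without control replicates 3 or 4 (0.0572 and 0.103) and with no dim filter (0.0635). Xist as a covariate also ended the calls of Rac2 (adjusted p = 0.0971) and Cyba (0.0921).

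Rac1, the isoform that nearly all cells use for the actin cytoskeleton, read 10.97, 10.87, 10.92 and 10.86 on Bcl2l1-deleted arrays and 10.94, 11.10, 11.10 and 10.93 on control arrays. The arrays of both groups overlapped within a narrow band. Its relative log2 change was -0.29 ± 0.13 (SE), and the fitted change of -0.12 did not pass (adjusted p = 0.556). Nox4 read 5.25, 4.94, 4.90 and 5.02 on Bcl2l1-deleted arrays and 4.75, 5.17, 4.78 and 5.18 on control arrays. Its groups overlapped as well, with a relative log2 change of -0.11 ± 0.17 (SE) and an adjusted p of 0.822. Nox4 did not pass in any of the 20 alternatives that gave it a value, nor did Rac1 in any of 21.

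**Figure D2:**
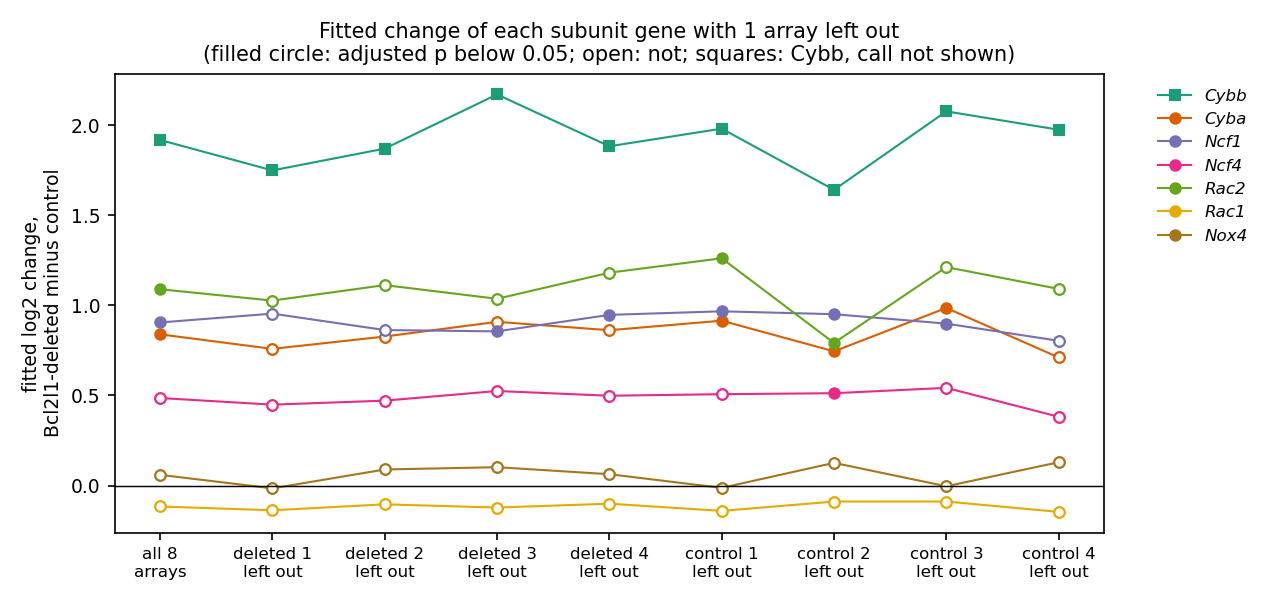
Fitted log2 change (Bcl2l1-deleted minus control, y axis) of each subunit gene with all 8 arrays and with each array left out in turn, where filled circles passed an adjusted p of 0.05, open circles did not, and Cybb is drawn as squares with its call not shown. Cybb lies between 1.64 and 2.17 and Ncf1 between 0.80 and 0.97, while Rac2 reaches its lowest value, 0.79, without control replicate 2.

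Within each genotype the members did not move as 1 block. Over the 8 arrays, deviations from the group means correlated at r = 0.68 between Cybb and Cyba, 0.61 between Cybb and Rac2 and 0.78 between Cyba and Ncf4. The same measure was -0.50 between Cybb and Ncf1, so the arrays with high Cybb for their group tended to have low Ncf1. These are descriptions over few arrays that share their normalization. The 5 genes whose deviations were most like those of Cybb were Fancd2 (r = 0.99), Mrps22 (0.98), Ppp2r1a (0.98), Glrx3 (0.97) and Dele1 (0.97). None of them is a phagocyte marker or passed the test (adjusted p between 0.0841 and 0.794). They were picked as the highest among all tested genes over only 8 arrays, where selection alone can give a very high r. Nothing is therefore read from which genes they are. With control replicate 2 dropped but the group means of all 8 arrays kept, their r lay between 0.949 and 0.985. Control replicate 2 thus still enters these values through the control mean.

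Genes that work beside the subunits were examined as a further list of 17 oxidase family and partner genes, of which 12 had a probe set of their own and 8 were tested. Of these 8, 2 rose, 0 fell and 6 did not pass, with a median relative log2 change of 0.13, against 0 over all tested genes. Over all tested genes 4.93% rose. This list and the lists below were chosen with earlier results of these data known, so nothing is read from their counts. Hvcn1, the voltage-gated proton channel that balances the charge moved by the oxidase, read 6.93, 6.87, 7.08 and 6.93 on Bcl2l1-deleted arrays and 5.81, 5.14, 6.03 and 5.36 on control arrays. The groups were far apart, and Hvcn1 rose by a relative log2 change of 1.20 ± 0.20 (SE, adjusted p = 0.0120), a call that held in 20 of 21 alternatives. Arhgdib, a GDP dissociation inhibitor of blood cells that holds Rac in the cytosol, averaged 6.02 ± 0.07 in Bcl2l1-deleted tumours and 5.26 ± 0.22 in controls (SD, n = 4 each), and rose by 0.59 ± 0.15 (relative log2 change ± SE, adjusted p = 0.0239). Cybc1, a chaperone of the gp91phox and p22phox pair, had a relative log2 change of 0.31 ± 0.24 (SE, adjusted p = 0.198). Sh3pxd2a and Sh3pxd2b, organisers related to p47phox, stood at 0.29 and -0.04 (adjusted p = 0.0789 and 0.586), and Rac3, the isoform of neurons, at -0.39 (0.362). The dual oxidase gene Duox2 and the maturation factor gene Duoxa1 stood at -0.61 and -0.29 (adjusted p = 0.246 and 0.708), and Nox1, Nox3, Noxa1 and Duox1 lay below the dim filter. The number that rose was 0 without Bcl2l1-deleted replicate 1, and 1 without Bcl2l1-deleted replicate 2 or 4 or control replicate 4.

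Upstream of the oxidase, 9 of 15 tested genes of its activation rose, against 4.93% of all tested genes. Of the 15, 0 fell and 6 did not pass, with a median relative log2 change of 0.60. Fcgr1, a high-affinity receptor for IgG whose engagement triggers the oxidase, read 7.39, 7.23, 7.65 and 7.17 on Bcl2l1-deleted arrays and 6.57, 5.53, 5.47 and 5.30 on control arrays, with control replicate 1 above the other controls. It rose by a relative log2 change of 1.47 ± 0.26 (SE, adjusted p = 0.0140). Vav1 and Dock2, exchange factors that load Rac with GTP in blood cells, rose by 1.10 ± 0.21 and 0.97 ± 0.19, and Pik3cg, a catalytic subunit of phosphoinositide 3-kinase, by 0.70 ± 0.14 (relative log2 change ± SE, adjusted p = 0.0140 for each). The number of genes that rose was 0 without Bcl2l1-deleted replicate 1 or 2, 4 or 5 without replicates 3 and 4, and 4 to 11 without 1 of the controls, with 11 without control replicate 2.

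Of 7 tested transcription factors known from oxidase genes, 3 rose, against 4.93% of all tested genes, 0 fell and 4 did not pass. Their median relative log2 change was 0.61. Irf8 read 6.60, 6.50, 6.83 and 6.61 on Bcl2l1-deleted arrays and 5.98, 5.50, 5.68 and 5.60 on control arrays, and Spi1, the gene of PU.1, read 6.65, 6.25, 6.45 and 6.35 on Bcl2l1-deleted arrays and 5.58, 5.28, 5.67 and 5.67 on control arrays. Neither gene's groups overlapped, and control replicate 2 was the lowest control for both. Irf8 rose by 0.77 ± 0.16, Spi1 by 0.71 ± 0.16 and Runx1 by 0.61 ± 0.16 (relative log2 change ± SE, adjusted p = 0.0140, 0.0174 and 0.0238). Elf1 stood at 0.80 ± 0.29 (SE) and did not pass (adjusted p = 0.0660). Without control replicate 2, 5 factors rose, and 0 rose without Bcl2l1-deleted replicate 1 or 2.

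On the side of removal, 1 of 22 tested genes that dispose of superoxide and peroxide rose and 21 did not pass, with a median relative log2 change of 0.32. A single call among 22 is close to the 4.93% of all tested genes that rose, so nothing is read from it. An unadjusted p under 0.05 (limma) was reached by 14 of the 22, against 4730 of the 15526 tested genes. For 11 of the 22 all Bcl2l1-deleted arrays lay above all controls, against 19.0% of all tested genes. The gene that rose was Gpx3, which encodes a secreted glutathione peroxidase, at 0.97 ± 0.22 (relative log2 change ± SE, adjusted p = 0.0220). Prdx4, Nfe2l2, the gene of the antioxidant regulator NRF2, and Hmox1, the haem oxygenase gene, stood at 0.72, 0.81 and 0.66 (adjusted p = 0.0529, 0.0535 and 0.0612). The number of disposal genes that rose was 8 without control replicate 1, 3 without control replicate 2 and 2 without control replicate 3, and 0 without any 1 of Bcl2l1-deleted replicates 1 to 3 or control replicate 4.

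**Figure D3:**
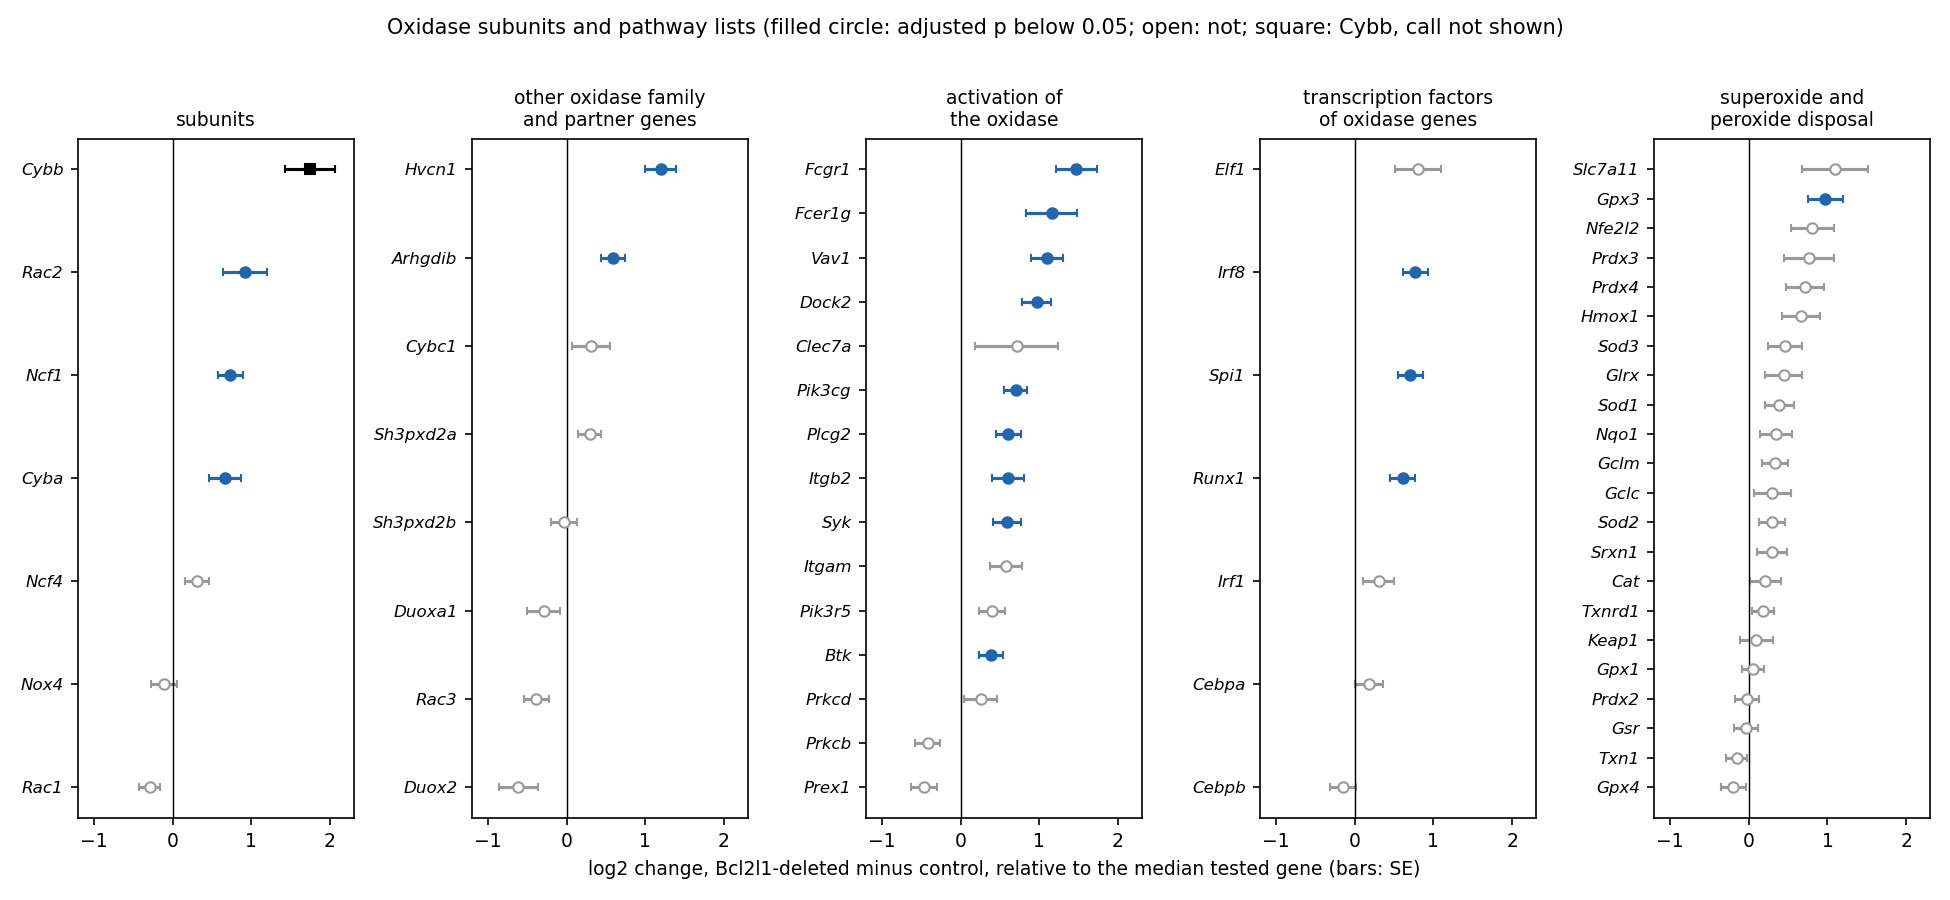
Relative log2 change (Bcl2l1-deleted minus control, less that of the median tested gene, x axis, bars SE) of the subunit genes and of 4 pathway lists, where filled circles passed an adjusted p of 0.05 and open circles did not, and the square is Cybb, whose call is not shown. The called genes lie to the right of 0 in every panel, and most of the disposal genes are open circles.

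Some markers of microglia and border macrophages, which can hold the oxidase, were higher in Bcl2l1-deleted tumours. Of 20 tested microglia markers 10 rose, against 4.93% of all tested genes, 0 fell and 10 did not pass. Their median relative log2 change was 0.79, and their mean level was 7.49 to 7.73 on Bcl2l1-deleted arrays and 6.25 to 7.18 on control arrays. Aif1, the cytoskeletal protein IBA1, rose by 1.12 ± 0.21, the protease gene Ctss by 1.08 ± 0.20, Laptm5 by 0.97 ± 0.21 and the complement gene C1qa by 0.77 ± 0.19 (relative log2 change ± SE, adjusted p between 0.0140 and 0.0247). The relative log2 change was above 0 for 19 of the 20, and Siglech stood at -0.48 (adjusted p = 0.270). Cx3cr1 and Tmem119 stood at 0.23 and 0.28 and did not pass (adjusted p = 0.137 and 0.144). Of 9 border macrophage markers 3 rose, Ms4a7 (1.83 ± 0.27), Mrc1 (1.24 ± 0.22) and Stab1 (0.95 ± 0.17), and 6 did not pass. The 6 were Lyve1 (0.49), Pf4 (0.35), F13a1 (0.19), Cbr2 (0.09), Siglec1 (-0.02) and Cd163 (-0.22, relative log2 change, adjusted p between 0.0730 and 0.890). The list's mean level was 6.13 to 6.59 on Bcl2l1-deleted arrays and 5.50 to 5.95 on control arrays. Within the genotypes, deviations of Cybb and of the microglia markers correlated between r = -0.11 for Siglech and 0.71 for Sall1 over the 8 arrays, with 0.08 for Aif1. The part of more macrophages or microglia in the subunit differences was not tested. Without Bcl2l1-deleted replicate 1 or 2, 0 microglia markers rose, 3 and 4 rose without Bcl2l1-deleted replicates 3 and 4, 10 without control replicate 2, 15 without control replicate 1 and 2 without control replicate 4. Of the border macrophage markers, 0 and 1 rose without Bcl2l1-deleted replicates 1 and 2.

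Markers of other phagocytes and of lymphocytes gave little signal. Of 16 neutrophil and monocyte markers 13 were too dim to be tested, and among the remaining 3 none (0) passed at an adjusted p of 0.05 or at an unadjusted p of 0.05 (limma), and the mean over the 16 was 3.76 to 4.11 on Bcl2l1-deleted arrays and 3.83 to 4.39 on control arrays. The myeloperoxidase gene Mpo averaged 3.79 in Bcl2l1-deleted tumours and 4.19 in controls, and S100a8 averaged 2.67 in Bcl2l1-deleted tumours and 2.65 in controls, both below the filter. The tested genes Chil3, Prtn3 and Cxcr2 had relative log2 changes of -0.75, 0.13 and -0.02 (adjusted p = 0.382, 0.392 and 0.653). Of 4 tested lymphocyte markers 0 passed, 1 of them having an unadjusted p under 0.05, and the 7 measured ones averaged 4.14 to 4.48 on Bcl2l1-deleted arrays and 4.15 to 4.72 on control arrays. The B cell receptor genes Cd79b and Cd79a stood at 0.61 and -0.07, Nkg7 at -0.25 and Cd8a at -0.17 (relative log2 change, adjusted p between 0.109 and 0.981). Of 11 tested endothelial markers 5 rose, against 4.93% of all tested genes, and 6 did not pass. Those that rose included Emcn (1.29 ± 0.32), Cldn5 (0.91 ± 0.22), Esam (0.86 ± 0.20) and Cdh5 (0.73 ± 0.14, relative log2 change ± SE). Nox4, which vessel walls can express, did not pass either. The number of endothelial markers that rose was 0 without Bcl2l1-deleted replicate 1 or 2, 2 without replicate 3 or 4, 3 without control replicate 3 and 1 without control replicate 4. Atoh1 and 11 other markers of granule neuron progenitor tumours all passed the dim filter, with mean levels of 9.47 to 9.62 on Bcl2l1-deleted arrays and 9.10 to 9.78 on control arrays, and 0 of 12 passed in limma (1 at an unadjusted p under 0.05). Atoh1, Mycn, Pax6 and Zic1 stood at 0.29, 0.07, -0.55 and -0.38 (relative log2 change, adjusted p = 0.108, 0.252, 0.298 and 0.325).

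The members were also set against the mean of the 20 microglia markers on the same array. This measure is the log2 value of a gene minus that mean, so only its difference between genotypes can be read, and it is a description with no test. Cybb stood at 0.64, 0.36, -0.68 and 0.43 on Bcl2l1-deleted arrays 1 to 4 and at -1.10, -1.18, -0.69 and -0.30 on control arrays 1 to 4. Bcl2l1-deleted replicates 1, 2 and 4 lay above all controls, and replicate 3 lay among them. The means differed by 1.01, by 1.03 against the median of the markers and by 0.63 against Aif1 alone. The last value was 0.34 without control replicate 2, and against Aif1 only Bcl2l1-deleted replicate 1 lay above all controls. As the rise of Cybb was known when the family was drawn up, nothing is read from its standing above the other subunits here.

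Cyba, Ncf1 and Rac2 differed by -0.07, -0.01 and 0.18 between the genotypes on this measure, and their groups overlapped. Rac2 averaged 0.63 ± 0.12 in Bcl2l1-deleted tumours and 0.45 ± 0.32 in controls, and Ncf1 averaged -1.16 ± 0.15 in Bcl2l1-deleted tumours and -1.15 ± 0.44 in controls (SD, n = 4 each). Against Aif1 alone the differences of Cyba, Ncf1 and Rac2 were -0.45, -0.39 and -0.20, so the sign for Rac2 depends on the markers used, and its difference was -0.51 without control replicate 2. Ncf4 differed by -0.43, Nox4 by -0.85 and Rac1 by -1.03, and for Rac1 all Bcl2l1-deleted arrays lay below all controls. The marker mean was higher on every Bcl2l1-deleted array than on any control, so a gene of unchanged level falls on this measure. The fitted changes of Rac1 and Nox4 were only -0.12 and 0.06, so their low values here follow from the subtraction. Without control replicate 2, where the marker mean was lowest, the differences were 0.88 for Cybb, 0.19 for Ncf1, 0.03 for Rac2, -0.01 for Cyba, -0.25 for Ncf4, -0.63 for Nox4 and -0.85 for Rac1.

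**Figure D4:**
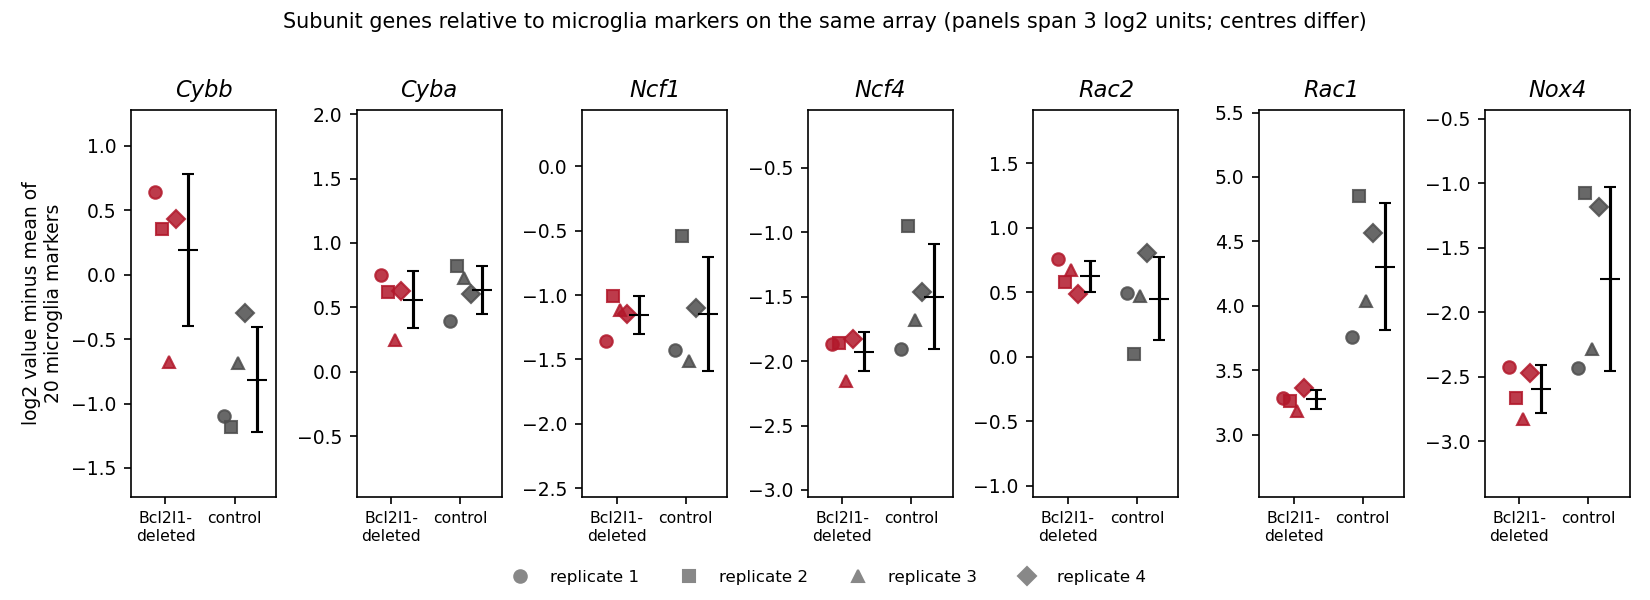
Log2 value of each subunit gene minus the mean of the 20 microglia markers on the same array (y axis), Bcl2l1-deleted on the left and control on the right, with the symbol giving the replicate number and the bar the mean ± SD (n = 4 each). Cybb, whose rise was known when the family was drawn up, lies higher on 3 of the 4 Bcl2l1-deleted arrays than on any control. Cyba, Ncf1 and Rac2 overlap between the genotypes. Rac1 lies lower on every Bcl2l1-deleted array, where the marker mean that is subtracted is higher.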

How the data were processed

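Total RNA of 8 tumours was measured on Affymetrix whole-transcript arrays. The deposited log2 values are RMA expression values from the Partek software, per the labels. Its version is not given in the sources used here. RMA as a method includes background correction, normalization between arrays and a summary over probes, and it compresses differences near background. The deposited arrays still did not share a common spread, as given above for control replicate 2. Of 41345 probe sets 23521 had 1 gene symbol, 1814 several and 16010 none in the platform annotation, and RefSeq names (GRCm38.p6) matched 23328 by Entrez identifier and changed 0 symbols.

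Groups follow the sample titles. The model, run in limma 3.58.1 under R 4.3.3, took genes above the 30th percentile of the mean and had genotype as its sole term. Tests were two-sided, p-values were adjusted by Benjamini-Hochberg across 15526 genes, and every adjusted p in the text comes from this fit or from the alternative named beside it. The precision is limited by 4 arrays per group. In simulated data of 15526 genes for the comparison of both genotypes, 95% of 100 genes shifted by 2 log2 units were recovered. Of 100 genes shifted by 1, 59% were recovered, and there were 6 false calls. These figures hold for the simulated data only, and whether they carry over to the real arrays was not tested. On the real arrays control replicate 2 stood apart, and the number of genes called ran from 20 to 2100 with 1 array left out.

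The members, the 10 lists (144 entries, 134 measured, 111 tested) and the tests were chosen with earlier results of these data known. Named are Bcl2l1, all members, all tested oxidase partner genes, up to 4 genes with the smallest p of each other list, and the 5 genes whose deviations from the group means correlated best with Cybb, without predicted genes, small RNAs and chemosensory receptors. Mpo, S100a8, Siglech, Cx3cr1, Tmem119, Prex1 and Prkcb were named after their values were seen. Alternatives were other dim filters, probe set choices, scalings, priors, array weights, a replicate block, 2 covariates and leaving out each array with the tested genes kept fixed. Filtering genes anew without each array was added after seeing the data.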

Additional observations from a re-analysis of the deposited data

Results flagged for a closer look

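Among the 112 sets of 4 arrays examined for the named genes, 3 held an array set apart from the other 3 beyond Dixon's 95% critical value, where chance sets apart about 1 in 20. Glrx3 had its lowest Bcl2l1-deleted value, 6.43, on replicate 3, with the other Bcl2l1-deleted arrays at 6.69 to 6.73. Zic1 read 11.01 in Bcl2l1-deleted replicate 2, and the other Bcl2l1-deleted arrays stood at 11.21. Duox2 read 5.52 in control replicate 2, with the other controls at 4.59 to 4.66. None of the 7 subunit genes was set apart in this way in either genotype.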

How the results depend on the processing

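The number of genes past an adjusted p of 0.05 was 1013, and it was 548 with no dim filter, 3494 with array weights, 508 with the replicate block, 200 with Xist as a covariate, and 20 to 2100 with 1 array left out. With genes filtered anew after an array was left out, an alternative chosen after seeing the data, the numbers came to 15, 33, 453 and 215 leaving out Bcl2l1-deleted replicates 1 to 4 and 1998, 2084, 461 and 157 without control replicates 1 to 4, and the subunit genes called were again 0 to 5. Higher calls were 765 and lower calls 248, against 390 and 699 centred on the genes tested, 273 and 404 with the receptor covariate, and 1337 and 171 centred on all probe sets. Of the 7 subunit genes 4 were called, Cybb included, and 2 were called with no dim filter, centred on the genes tested, with the Xist or the receptor covariate, and 0 to 5 with 1 array left out. The replicate block gave 3 and ended the call of Cyba. Same-numbered arrays did not deviate together over all tested genes (r between -0.13 and 0.05, and 0 of 4 best with their own number). This measure cannot exclude a pairing that touches few genes.

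With no dim filter, 5 microglia markers and 5 activation genes were called. Centred on the genes tested, 4 activation genes and 1 partner gene were called, and with the replicate block 5 and 1. With Xist as a covariate the calls were 2 microglia markers, 1 endothelial marker, 1 partner gene, 4 activation genes and 0 disposal genes. With the receptor covariate they were 3 microglia markers, 3 endothelial markers, 1 tumour marker, 4 activation genes and 0 disposal genes. Array weights gave 8 endothelial markers, 2 tumour markers, both lower, 5 transcription factors and 9 disposal genes. Disposal genes called were 2 with quantile normalization or an intensity trend and 4 centred on all probe sets. With 1 array left out the calls ran from 0 to 15 for microglia markers, 0 to 4 for border macrophage markers, 0 to 5 for endothelial markers, 0 to 1 for tumour markers, 0 to 2 for partner genes, 0 to 11 for activation genes, 0 to 5 for transcription factors, 0 to 8 for disposal genes and 0 for neutrophil or lymphocyte markers. The cause of these shifts was not tested.

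Directions turned only for genes that were not called, here with fitted changes. Centred on all probe sets, Rac1 had 0.0560, Duoxa1 0.0522 and Nkg7 0.0983. Centred on the genes tested, Nox4 had -0.199, Sh3pxd2b -0.123, Ppp2r1a -0.196, Dele1 -0.0596, Mycn -0.0172, Cd79a -0.153, Cd8a -0.251 and Cxcr2 -0.107. After quantile normalization Sh3pxd2b had -0.0159, Duoxa1 0.0504 and Nkg7 0.0240, and array weights gave Duoxa1 0.0790 and Nkg7 0.0248. The receptor covariate gave Duoxa1 0.162, Ppp2r1a -0.0577, Dele1 -0.0134, Cd79a -0.0624, Nkg7 0.123, Chil3 0.268 and Prtn3 -0.154. With 1 array left out, Nox4 ran from -0.0159 to 0.129, Duoxa1 from -0.295 to 0.0206, Ppp2r1a from -0.0169 to 0.130, Nkg7 from -0.217 to 0.0211, Cd8a from -0.115 to 0.120 and Cxcr2 from -0.0156 to 0.331. Relative to Aif1 alone, the difference between genotypes moved to -0.45 for Cyba and to -0.20 for Rac2. The number of arrays limits the precision of all these values.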

Other observations

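Ncf4 and Rac2 lie near each other in the RefSeq gene order, with 16 genes between them, of which 10 had a probe set of their own and 7 were tested. Only C1qtnf6, which encodes a secreted protein of the complement C1q and TNF related family, was called. It averaged 6.44 ± 0.05 in Bcl2l1-deleted tumours and 5.74 ± 0.16 in controls (SD, n = 4 each), a relative log2 change of 0.53 ± 0.14 (SE, adjusted p = 0.0238), and it was named after its value was seen. The other 6 tested genes between the pair did not pass, with Csf2rb and Csf2rb2, the receptor chain genes of colony-stimulating factors, at -0.20 and 0.03 (adjusted p = 0.953 and 0.417). Sstr3 stood lower, at a relative log2 change of -0.81 ± 0.18 (SE, adjusted p = 0.0602). Kctd17, Tst and Mpst stood at 0.27, 0.20 and -0.19 (adjusted p = 0.191, 0.264 and 0.958).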
